A study of Arabidopsis thaliana with 4 samples.

Results

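Transcript levels were followed for 10 rows of a deposited FPKM table of 32823 rows from Arabidopsis thaliana seedlings. Of these, 6 are genes of heat shock regulators (HSFB2A, HSFB2B, HSFC1, MBF1C, HSBP and DREB2A). The other 4 are rows annotated on the strand opposite to HSP17.4, HSFB2B, MBF1C and HSFC1. They were picked by locus code with earlier values from these same libraries in view, mainly their heat differences, so their levels and differences are a description and carry no test. FPKM divides the fragments of a row by its transcript length and by the fragments mapped. All 10 reached the row minimum used here, an average of 1 FPKM, as did 10488 rows of the table. Values of a genotype are given as a pair, the control library first and the heat library second.

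The series holds 4 RNA libraries from whole seedlings of ecotype Col-0, 1 per group, the groups being control and heat in WT and in miR164OE. WT is wild type, and miR164OE is a transgenic line overexpressing miR164, a microRNA known to cut the messenger RNA of NAC transcription factors. All plants grew at 22 °C in a 16 h light and 8 h dark cycle, and heat means 35 °C for 5 days, begun on seedlings 5 days old, per the labels. The sources used here do not give the age of the control seedlings, the promoter of the transgene or the number of lines or plants behind a library.

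In plants, misfolded protein in hot cells releases class A heat shock factors, which bind heat shock elements and switch on chaperone genes. HSFB2A and HSFB2B belong to class B, whose members act mostly as repressors of the heat response, and HSFC1 is the only class C factor of Arabidopsis. MBF1C is a heat-induced coactivator needed for tolerance of heat and placed upstream of DREB2A and class B factors, DREB2A is a transcription factor of drought and heat responses that activates HSFA3, and HSBP binds heat shock factors and dampens the response.

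The rows on the other strand lie within or across the coding genes, so all or part of their sequence is the reverse complement of exons of those genes. AT3G07365 (453 bases, 1 exon, plus strand of chromosome 3, annotated as a long non-coding RNA) lies wholly inside HSP17.4, a class I small heat shock protein gene, with 399 of its bases opposite the coding sequence. AT4G05910 (352 bases, 1 exon, minus strand of chromosome 4, also a long non-coding RNA) lies wholly within the coding sequence of HSFB2B. AT3G04685 (176 bases, 1 exon, minus strand of chromosome 3, annotated as an antisense RNA) lies wholly inside MBF1C, with 120 bases opposite the coding sequence. AT3G24518 (2908 exon bases in 4 exon blocks, minus strand of chromosome 3, a long non-coding RNA with 4 transcripts) has 1668 exon bases opposite the 1725 exon bases of HSFC1, 937 of them opposite its coding sequence.

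A stretch of each is shown 5′ to 3′ on the strand of the row, from the RefSeq genome in the build TAIR10.1, because their sequence shows how each lies against its coding gene. Capitals mark the reverse complement of the start codon of HSP17.4 and of the stop codon of MBF1C, and the other stretches hold neither codon. The windows are chr3:16984554-16984733 (plus), chr4:7043788-7043967 (minus), chr3:8919082-8919201 (minus) and chr3:8941767-8941946 (minus).
AT3G07365: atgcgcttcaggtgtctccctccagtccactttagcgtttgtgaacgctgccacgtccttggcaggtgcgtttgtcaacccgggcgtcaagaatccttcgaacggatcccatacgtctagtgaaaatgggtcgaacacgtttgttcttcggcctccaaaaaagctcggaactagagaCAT
AT4G05910: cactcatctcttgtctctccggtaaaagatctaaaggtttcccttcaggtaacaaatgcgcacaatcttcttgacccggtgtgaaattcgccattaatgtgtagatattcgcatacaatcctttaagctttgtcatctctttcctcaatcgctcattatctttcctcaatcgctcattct
AT3G04685: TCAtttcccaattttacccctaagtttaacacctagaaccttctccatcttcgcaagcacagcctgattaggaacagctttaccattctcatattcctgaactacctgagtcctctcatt
AT3G24518: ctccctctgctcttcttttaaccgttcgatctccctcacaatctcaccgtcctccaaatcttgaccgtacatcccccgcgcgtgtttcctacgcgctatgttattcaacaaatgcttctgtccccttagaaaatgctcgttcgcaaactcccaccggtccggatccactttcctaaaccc

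**Figure D1:**
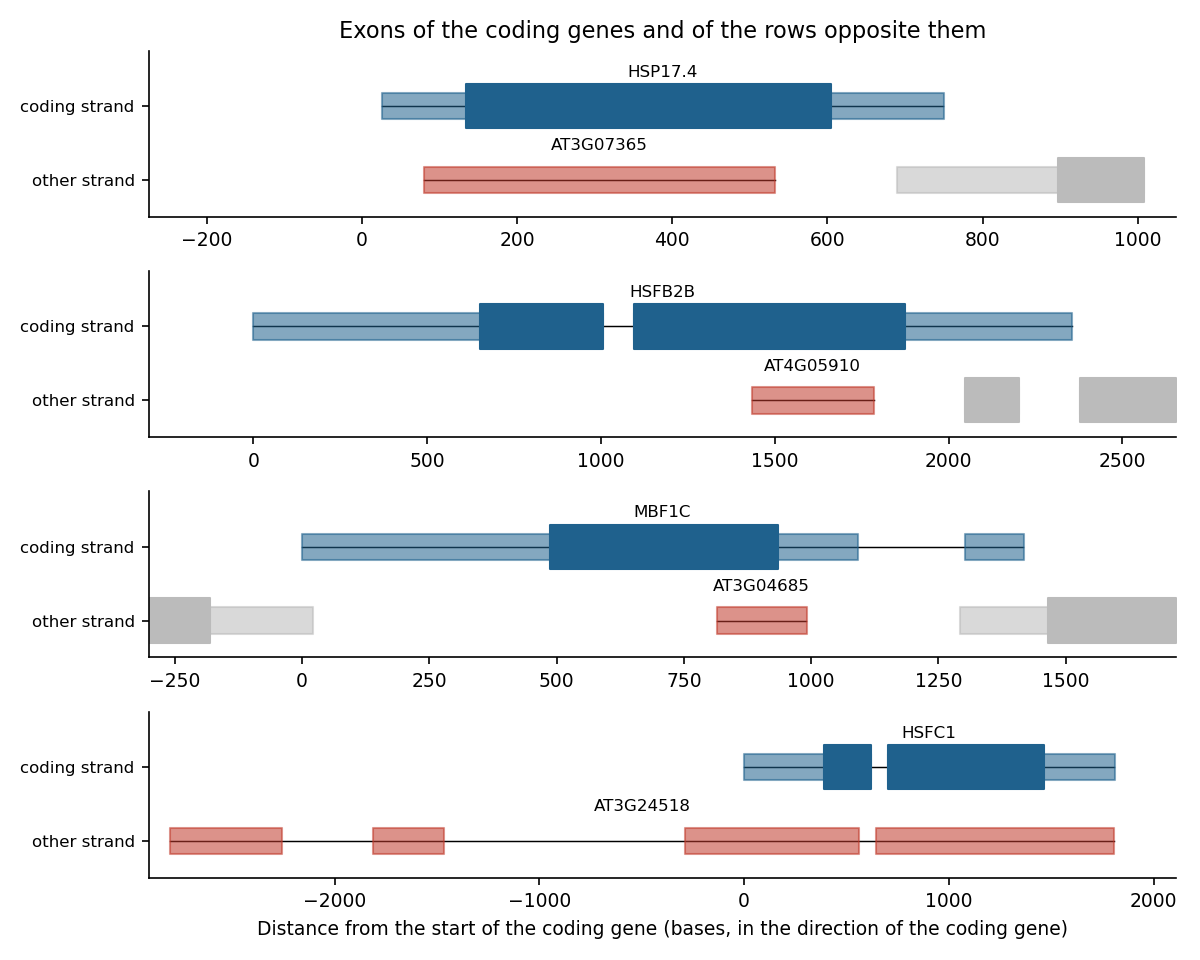
Exons of HSP17.4, HSFB2B, MBF1C and HSFC1 (blue, upper track of each panel) and of the rows opposite them (red, lower track), by distance in bases from the start of the coding gene in its own direction; tall blocks are coding sequence, and grey blocks are neighbouring genes. AT3G07365, AT4G05910 and AT3G04685 lie wholly inside the exons of 1 coding gene, whereas AT3G24518 runs on beyond the start of HSFC1.

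The values have limits that touch every result. By an approximate estimate from the low values, 1 fragment over 1 kb counted for about 2.11 and 1.71 FPKM in the WT pair and 1.99 and 1.19 in the miR164OE pair, so the FPKM divisor was largest in miR164OE heat. Rows overlapping a gene on the other strand held 95.1% and 89.0% of summed FPKM in the WT pair and 95.4% and 87.8% in the miR164OE pair, while being 26.8% of the rows. The kit is strand-specific and no source used here gives the strand setting of the quantification. Whether the value of a row comes from its own strand was not tested. With 1 library a group there is no replicate check on any difference, and in whole seedlings fewer cells of a type and less RNA per cell cannot be told apart. All 5 markers of green tissue were above 0 in every library, with summed FPKM of 361 and 157 in the WT pair and 278 and 201 in the miR164OE pair. All 4 seed storage genes were listed at 0, and of 4 flower organ genes only PI was above 0, in 3 libraries. Of 5 root genes at most 1 was above 0 in any library, with summed FPKM of 0 to 3.65, and EXPA7, AtGH9C1 and PER27 were at 0 in all 4. Root tissue is not shown by these markers, and the part of tissue makeup in the results was not tested.

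**Figure D2:**
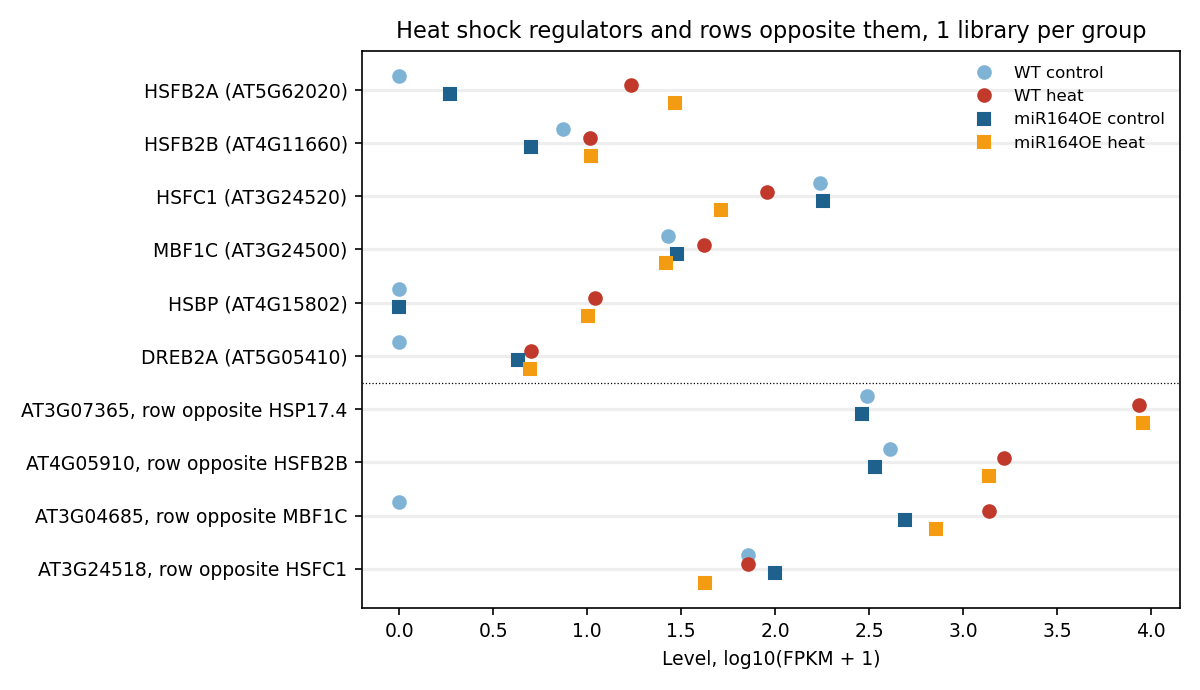
Level of each row in each library, as log10(FPKM + 1); circles are WT, squares miR164OE, and the dotted line parts the 6 regulator rows from the 4 opposite rows. The opposite rows of HSP17.4 and HSFB2B lie above every regulator row in all 4 libraries.

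Heat was accompanied by higher values for 6 of the 10 rows in WT and 5 in miR164OE, and by lower values for none in WT and 2 in miR164OE. Higher and lower mean here a difference of at least 1 in log2(FPKM + 1), or 2-fold on that scale. Of all rows, 29.8% were called higher and 21.7% lower in WT, and 32.5% higher and 17.2% lower in miR164OE. With nuclear rows set to a common sum, 43.4% and 13.2% were called in WT and 52.6% and 7.88% in miR164OE. The median difference of the 10 rows was 2.17 in WT and 0.81 in miR164OE, against 0 and 0.25 over all rows. The rows were chosen on these contrasts, so nothing is read from the counts. A difference against a library listed at 0 depends on the added 1 and is not a fold.

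Among the class B factors, HSFB2A (chromosome 5, 24915807 to 24917643, plus strand, no overlapping gene) read 0 then 16.0 FPKM in the WT pair and 0.854 then 28.3 in the miR164OE pair. Both heat libraries lay above both controls. The differences were 4.09 in WT and 3.98 in miR164OE, and the row rests on about 16.4 and 41.8 fragments in the heat libraries against 0 and about 0.755 in the controls. Of the 10488 rows, 302 had as high a difference in WT and 268 in miR164OE.

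HSFB2B (chromosome 4, 7042354 to 7044708, plus strand) read 6.46 then 9.40 FPKM in the WT pair and 4.01 then 9.53 in the miR164OE pair. The heat libraries were again the higher ones, but the difference was 0.48 in WT and 1.07 in miR164OE, of which the second passed the 2-fold rule. With a pseudocount of 5 it was 0.69 in miR164OE and no longer did, and with nuclear rows set to a common sum the WT difference was 1.17 and passed as well. Over the 4 libraries this row holds about 42.2 fragments.

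The row opposite HSFB2B, AT4G05910, read 406 then 1646 FPKM in the WT pair and 338 then 1374 in the miR164OE pair, on about 59.9 to 407 fragments a library. Heat libraries were above controls in both genotypes, by 4.05 times in WT and 4.07 times in miR164OE. Per length, the opposite row was 62.9 then 175 times as high as the row of HSFB2B in the WT pair and 84.2 then 144 times in the miR164OE pair. On these values the opposite row differed more with heat than the row of the gene around it in both genotypes. The row of HSFB2B rests on about 6.95 then 12.5 fragments in the WT pair and 4.58 then 18.2 in the miR164OE pair. Whether the heat differences of these rows part beyond that depth was not tested. Since AT4G05910 lies wholly inside HSFB2B, its reads cannot be told apart from those of HSFB2B without strand.

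HSFC1 (chromosome 3, 8941066 to 8942874, plus strand) went the other way. It read 173 then 89.4 FPKM in the WT pair and 179 then 50.2 in the miR164OE pair. Both heat libraries were lower than both controls, by -0.94 in WT, just short of the 2-fold limit, and by -1.82 in miR164OE. With nuclear rows set to a common sum the WT difference was -0.17 and that in miR164OE -0.88, which no longer passed. This was the highest of the 6 regulator rows in every library, and it rests on about 72.8 to 156 fragments in each.

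AT3G24518, the row opposite HSFC1, read 70.3 then 70.8 FPKM in the WT pair and 98.6 then 41.4 in the miR164OE pair. The WT libraries were alike on the deposited scale, while the miR164OE heat library was the lowest and the miR164OE control the highest. The difference was 0.0099 in WT and -1.23 in miR164OE. With nuclear rows set to a common sum these were 0.78 and -0.31, so the likeness of the WT libraries depends on the scaling. Unlike AT4G05910, it stayed below the row of its coding gene, at 0.407 to 0.824 times the level of HSFC1. HSFC1 and this row overlap over almost the whole of HSFC1, and within that overlap their reads cannot be told apart without strand. Of the 2908 exon bases of AT3G24518, 1668 lie opposite HSFC1. The value of its row covers those inside and outside HSFC1 together.

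**Figure D3:**
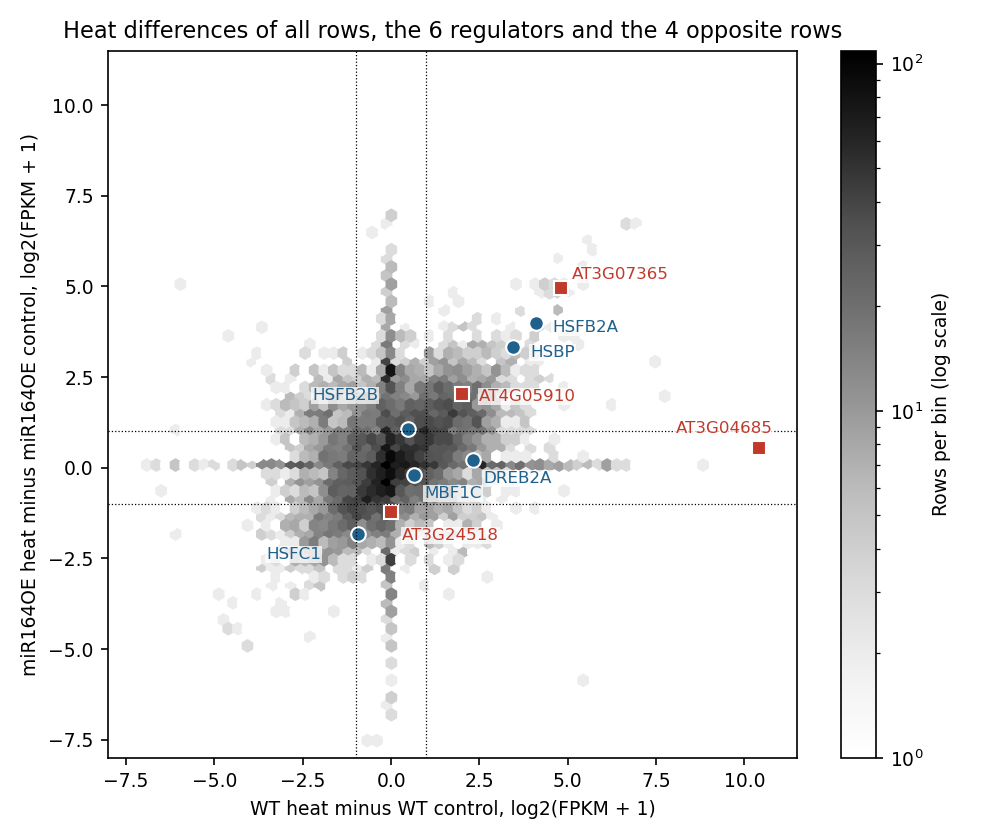
Heat minus control in log2(FPKM + 1) for WT (horizontal axis) and miR164OE (vertical axis); grey bins count the 10488 rows, blue circles are regulators, red squares opposite rows, and dotted lines mark 2-fold. HSFB2A, HSBP, AT3G07365 and AT4G05910 lie past 2-fold in both genotypes, and AT3G04685 lies far to the right, having been listed at 0 in WT control.

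MBF1C, the coactivator (chromosome 3, 8918267 to 8919683, plus strand), stayed within 2-fold with heat in its own row. It read 25.8 then 40.7 FPKM in the WT pair and 29.1 then 25.3 in the miR164OE pair. The WT heat library was the highest and the other 3 were close together, with differences of 0.64 in WT and -0.20 in miR164OE on about 14.8 to 28.7 fragments a library. With nuclear rows set to a common sum they were 1.39 and 0.71, and with scaling by the median ratio 0.74 and 0.038, so the sign in miR164OE turned under both.

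The row opposite MBF1C, AT3G04685, read 0 then 1371 FPKM in the WT pair and 488 then 717 in the miR164OE pair. Heat libraries were higher in both genotypes, but the controls were not alike. At 176 bases the row is short, with 1 fragment worth about 11.97 FPKM in WT control and 6.76 in miR164OE heat by its length, and FPKM of such a short row is uncertain. No fold is given against the listed 0, and the difference was 0.55 in miR164OE, or 1.47 times. Where a value was listed, the row was 16.7 to 33.6 times as high as that of MBF1C per length. Without strand, its reads cannot be told apart from those of MBF1C, which holds all of its bases.

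DREB2A (chromosome 5, 1602205 to 1604112, plus strand), for which MBF1C is known to act upstream, read 0 then 3.99 FPKM in the WT pair and 3.29 then 3.96 in the miR164OE pair. Only the WT control library stood apart, by a listed 0. These values correspond to about 3.85 fragments in WT heat and about 2.74 then 5.503 in the miR164OE pair, so the depth does not show whether the level differed. The difference of 2.32 in WT became 0.85 with a pseudocount of 5.

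HSBP, the factor-binding protein (chromosome 4, 8986598 to 8988661, minus strand, 5 exons, no overlapping gene), was listed at 0 FPKM in both controls and at 10.02 and 9.13 in the heat libraries of WT and miR164OE. The heat libraries were alike and both lay above the controls, on about 4.97 and 6.52 fragments. HSBP reached the row minimum by its heat libraries alone, so with heat it could only be called higher. The differences on the log2 scale were 3.46 and 3.34.

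AT3G07365, the row opposite HSP17.4, had the highest level of the 10 rows in both heat libraries. It read 306 then 8610 FPKM in the WT pair and 287 then 9026 in the miR164OE pair. The heat libraries were 28.1 times as high as the control in WT and 31.4 times in miR164OE. The row ranked 535th and 558th of the table in the WT and miR164OE controls and 18th and 17th in the heat libraries, with about 65.8 and 65.6 fragments in the controls and about 2279 and 3438 after heat. HSP17.4 itself (chromosome 3, 16984118 to 16984867, minus strand) was listed at 0 in both controls and at 11.2 and 13.9 FPKM in WT and miR164OE heat. The opposite row was thus 771 and 649 times as high there. All 453 of its bases lie opposite HSP17.4, so without strand its reads cannot be told apart from those of HSP17.4. Which strand these values come from was not tested.

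For context, 374 rows of the table had 90% or more of their bases opposite 1 coding gene, 300 bases or more and an average of 20 FPKM or more. Of these, 16.3% were at least 2-fold higher and 22.5% lower with heat in WT, and 12.6% and 26.7% in miR164OE, at medians of -0.26 and -0.39. AT3G07365 and AT4G05910 are among these rows and were higher in both genotypes, AT3G04685 is too short, and AT3G24518 has 57.4% of its bases opposite HSFC1.

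Between genotypes fewer of the 10 rows passed the 2-fold rule. They were picked mainly on their heat differences, so nothing is read from that. Without heat, 2 of the 10 rows were at least 2-fold higher in miR164OE and none lower, where 16.8% and 18.9% of all rows were. Both of them, DREB2A and AT3G04685, were listed at 0 in WT control. Among the rows with about 59.9 or more fragments in each control, AT3G07365 differed by -0.09, AT4G05910 by -0.27, HSFC1 by 0.05 and AT3G24518 by 0.48.

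After heat, none of the 10 rows differed 2-fold between miR164OE and WT, where 19.6% of all rows were higher and 13.6% lower. The differences ran from -0.93 for AT3G04685 to 0.79 for HSFB2A. Against WT heat, the miR164OE heat library read 0.562 times the level of HSFC1, 0.584 times that of AT3G24518 and 1.05 times that of AT3G07365.

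The heat difference was at least 2-fold lower in miR164OE than in WT for 3 rows and higher for none, where 22.3% and 27.7% of all rows were. For DREB2A it was lower by -2.11 and for AT3G04685 by -9.87, both resting on the listed 0 in WT control, and for AT3G24518 by -1.24. AT4G05910 differed by 0.0048, AT3G07365 by 0.16 and HSFB2A by -0.10. With 1 library a group none of these could be tested.

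Upstream sequence was searched for heat shock elements, written GAANNTTC and TTCNNGAA, and for dehydration-responsive elements, the sites bound by DREB2A, written ACCGAC and GCCGAC. Both strands of the 250 bases before the annotated start of the gene were read, and overlapping matches were counted separately. Of 27441 coding genes in the table, 16.1% held a match to a heat shock element and 7.09% a match to a dehydration-responsive element in that window. HSP17.4 held 4 matches to a heat shock element and DREB2A 2, which overlap in pairs, and HSFB2A held 1 dehydration-responsive element and no heat shock element. HSFB2B, HSFC1, MBF1C and HSBP held no match to any of these letters in this window.

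The windows with a match are shown in the direction of the gene, in the build TAIR10.1, with the matches in capitals. They are chr3:16984868-16985117 (minus) before HSP17.4, chr5:1601955-1602204 (plus) before DREB2A and chr5:24915557-24915806 (plus) before HSFB2A. In HSP17.4 the overlapping pairs lie 99 to 87 and 18 to 6 bases before the start of the gene, and in DREB2A the pair lies 164 to 152 bases before it. The annotated exon of HSP17.4 begins 26 bases after the start of the gene, and the bases between were not searched. A match of letters does not show that a factor binds there.
HSP17.4: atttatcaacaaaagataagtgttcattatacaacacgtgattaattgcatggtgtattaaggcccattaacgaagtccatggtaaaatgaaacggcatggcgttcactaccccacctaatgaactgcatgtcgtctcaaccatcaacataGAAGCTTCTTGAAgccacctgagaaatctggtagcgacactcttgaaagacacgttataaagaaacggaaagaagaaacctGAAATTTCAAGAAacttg
DREB2A: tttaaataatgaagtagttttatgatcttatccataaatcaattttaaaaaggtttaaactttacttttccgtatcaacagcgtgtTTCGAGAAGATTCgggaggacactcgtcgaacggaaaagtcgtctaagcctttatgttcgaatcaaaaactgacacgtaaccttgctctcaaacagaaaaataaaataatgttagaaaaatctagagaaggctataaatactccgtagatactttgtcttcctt
HSFB2A: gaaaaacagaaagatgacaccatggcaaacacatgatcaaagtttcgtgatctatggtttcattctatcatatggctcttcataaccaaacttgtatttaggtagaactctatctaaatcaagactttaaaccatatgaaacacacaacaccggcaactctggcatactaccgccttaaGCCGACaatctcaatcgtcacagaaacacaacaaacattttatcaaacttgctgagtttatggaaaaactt

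The other 18 heat shock factor genes were barely seen in their own rows. Of these, 7 were listed at 0 in all 4 libraries, among them HSFA2, a factor known to be strongly induced by heat, and only HSFA3 and HSFB1 reached the row minimum. HSFA3, which DREB2A activates, read 2.99 then 2.997 FPKM in the WT pair and 2.79 then 3.33 in the miR164OE pair. The values of all 4 libraries were close together, on about 3.11 to 6.20 fragments each, so the depth does not show whether the level differed. HSFB1, a class B repressor, read 4.18 then 5.73 FPKM in the WT pair and 2.60 then 9.54 in the miR164OE pair. HSFB1 was at least 2-fold higher with heat in miR164OE, by 1.55, on about 2.33 then 14.3 fragments. HSFA3 was in neither genotype, and the list medians were 0.19 in WT and 0.87 in miR164OE. Of all rows, 29.8% were higher in WT and 32.5% in miR164OE, and with 2 genes nothing is read from the counts. The other class A and class B genes were mostly at or near 0 in all libraries.

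**Figure D4:**
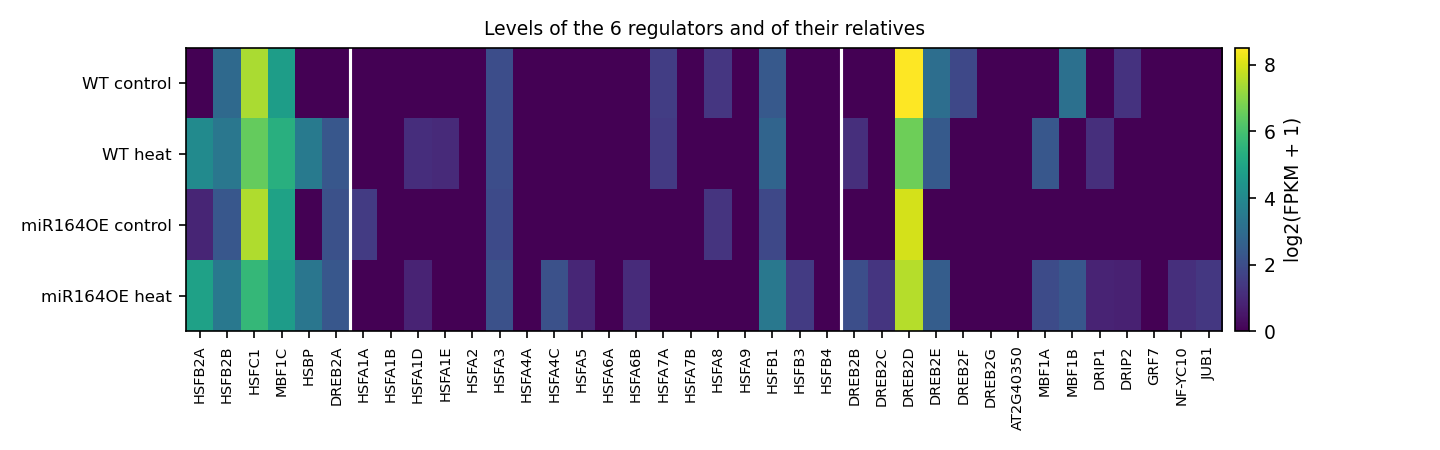
Level of the 6 regulators (left block), the other 18 heat shock factors (middle block) and the other DREB2 and MBF1 genes with regulators of DREB2A (right) in each library, coloured by log2(FPKM + 1). Most relatives are dark, at or near 0 FPKM, while HSFC1, MBF1C and DREB2D are brighter in all 4 libraries.

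Of the 14 other DREB2 and MBF1 genes and regulators of DREB2A, 5 reached the row minimum. In WT heat 2 were at least 2-fold higher and 2 lower (median -0.68), and in miR164OE heat 4 were higher and none lower (median 2.06). Of all rows, 29.8% were higher and 21.7% lower in WT and 32.5% and 17.2% in miR164OE. With 5 genes, nothing is read from the counts of either genotype. The 4 higher calls in miR164OE each start from a listed 0 in its control and rest on about 1.87 to 4.47 fragments in miR164OE heat. MBF1A, a paralog of MBF1C, was listed at 0 FPKM in both controls and at 4.001 and 2.87 in WT and miR164OE heat. MBF1B, the other paralog, read 7.89 then 0 in the WT pair and 0 then 3.93 in the miR164OE pair. The paralogs had unlike patterns, on a few fragments each. DREB2B, the nearest relative of DREB2A, was listed at 0 in both controls and at 1.23 and 3.18 in the heat libraries, and 69.5% of its bases lie opposite another gene. DREB2D read 365 then 98.7 FPKM in the WT pair and 249 then 189 in the miR164OE pair, so only the WT difference, -1.87, passed the rule.

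Target genes of the pathway were read from 3 lists. Of 19 small heat shock protein genes 16 reached the row minimum. They were at least 2-fold higher with heat in 12 of 16 rows in WT and lower in none (median 1.74), and higher in 12 and lower in 1 in miR164OE (median 2.36), where 29.8% and 32.5% of all rows were higher. With a pseudocount of 5 the WT count was 7. Some of these rows, HSP17.4 and HSP23.5 among them, were at 0 in both controls and reached the row minimum by their heat libraries alone. Such rows could only be called higher. Several WT calls rest on few fragments, the lowest on about 0.795 in WT heat. HSP17.6A read 0.891 then 26.03 FPKM in the WT pair and 3.70 then 27.04 in the miR164OE pair, and HSP17.6 read 0 then 12.9 and 3.32 then 26.1. HSP23.5, of the mitochondrion, was listed at 0 in both controls and at 7.66 and 4.41 in WT and miR164OE heat. These rows, like that of HSP17.4 given above, were low or at 0 without heat and higher with heat in both genotypes. They were named for the largest WT heat differences of the list, so their rise in WT follows from that choice. Other rows of the list did not share the pattern. HSP23.6 read 2.76 then 2.39 FPKM in the WT pair and 0 in both miR164OE libraries, and HSP15.4 read 2.24 then 0 in the miR164OE pair.

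Of 7 measured rows of other heat shock factor targets, 3 were higher and 1 lower in WT (median -0.09), and 5 higher and none lower in miR164OE (median 1.33). The shares over all rows were 29.8% higher and 21.7% lower in WT and 32.5% and 17.2% in miR164OE. With 7 rows, nothing is read from the counts of either genotype. HSP90-1, the heat-inducible cytosolic HSP90, read 0 then 8.38 FPKM in the WT pair and 1.13 then 15.5 in the miR164OE pair. FKBP65, also called ROF2, a peptidyl-prolyl isomerase that binds HSP90, was listed at 0 in both controls and at 5.81 and 9.46 after heat. APX2, a heat-induced ascorbate peroxidase, was listed at 0 in both controls and at 6.95 and 1.03 after heat, and ROF1, a relative of ROF2, read 3.24 then 0.851 in the WT pair and 0 then 6.94 in the miR164OE pair. ROF1 thus went opposite ways in the genotypes, on at most about 13.5 fragments.

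Of 4 dehydration targets of DREB2A, 1 was higher in WT (median 0.096) and 2 in miR164OE (median 1.38), and none was lower. With 29.8% and 32.5% of all rows higher, counts over 4 genes say nothing particular about them. RD29A was listed at 0 in both controls and at 7.66 and 3.78 FPKM in WT and miR164OE heat, and LTI65, also called RD29B, read at most 2.48 in any library. COR47, a dehydrin, read 22.6 then 20.8 FPKM in the WT pair and 20.9 then 42.003 in the miR164OE pair, a miR164OE difference of 0.97. LEA14 was between 5.95 and 7.68 FPKM in all 4 libraries.

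**Figure D5:**
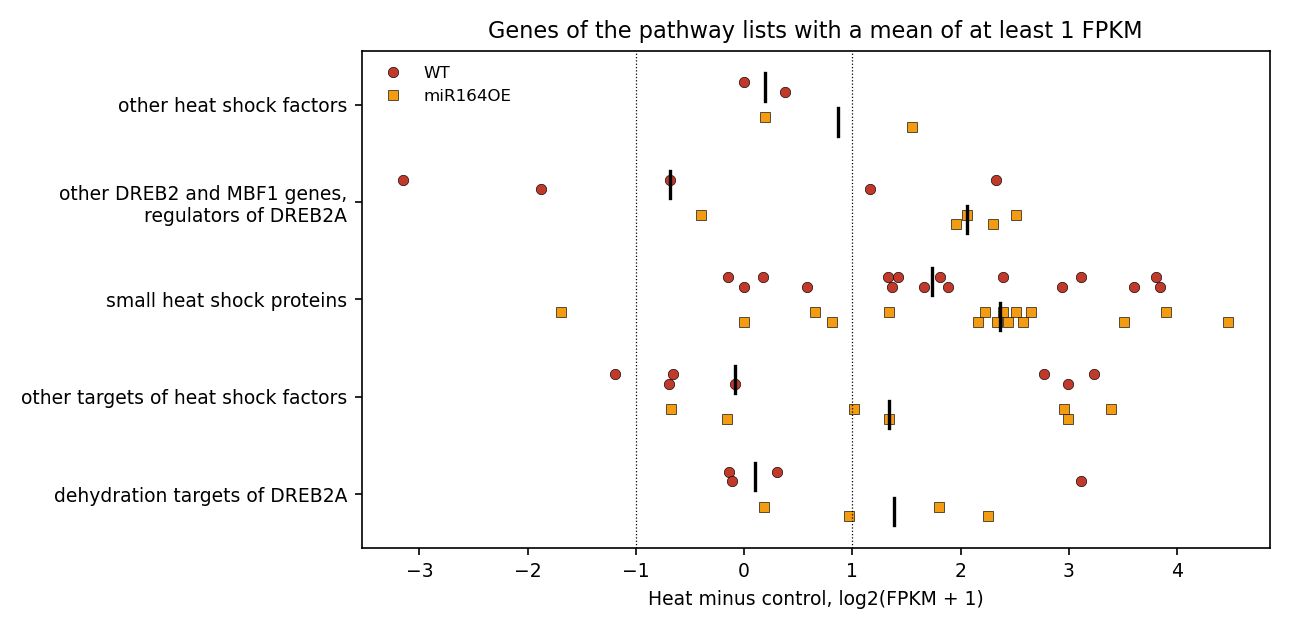
Heat minus control in log2(FPKM + 1) for each gene of the pathway lists past the row minimum, in WT (circles) and miR164OE (squares); black bars are medians and dotted lines mark 2-fold. Small heat shock proteins lie mostly to the right of the upper limit in both genotypes. Each list's median is further right in miR164OE than in WT, as is the median over all rows, at 0.25 against 0.

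Few listed genes have a row opposite them that could be set beside these. Besides HSP17.4, a row with at least 50% of its bases opposite a listed gene exists for HSFA9, DREB2E and GRF7. That of HSFA9 was listed at 0 in all 4 libraries. AT2G08960, of 205 bases, opposite DREB2E, was listed at 0 in both controls and at 54.02 and 75.8 FPKM in WT and miR164OE heat. DREB2E itself read 7.47 then 4.28 FPKM in the WT pair and 0 then 4.70 in the miR164OE pair. AT5G08015, of 373 bases, opposite GRF7, a repressor of DREB2A, was listed at 12.7 and 35.6 FPKM in the WT and miR164OE controls and at 0 in both heat libraries. GRF7 itself was at 0 in all 4.

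Rows whose pattern over the 4 libraries was most like that of each row averaging 20 FPKM or more were found by the Euclidean distance between centred log2(FPKM + 1) values, among 2085 nuclear rows of 300 bases or more and averaging 20 FPKM or more. Nearest to AT3G07365 were AT2G07739, AT2G07787 and AT2G07835, at distances of 0.19, 0.31 and 0.38. AT2G07739 read 93.9 then 2463 FPKM in the WT pair and 97.4 then 2654 in the miR164OE pair. These 3 rows lie near the centromere of chromosome 2, where a copy of the mitochondrial genome is known to sit, so reads of mitochondrial genes cannot be told apart from theirs.

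Nearest to AT4G05910 were AT2G21185, AT1G05943 and AT4G26240 at 0.15, 0.21 and 0.21. AT2G21185 read 122 then 465 FPKM in the WT pair and 106 then 379 in the miR164OE pair, and AT1G05943 lies opposite IDD16 with 94.4% of its bases. Nearest to HSFC1 were AT3G05285, AT2G36430 and AT1G05047 at 0.12, 0.15 and 0.16, all of them lowest in miR164OE heat. AT3G05285 and AT1G05047 have 60.0% and 82.1% of their bases opposite EMB3123 and LSMT-L.

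Nearest to MBF1C were HIR3, AT1G09993 and AT5G23590 at 0.12, 0.13 and 0.15, each highest in WT heat. Nearest to AT3G24518 were AT4G06685, AT2G07275 and NIC2 at 0.078, 0.16 and 0.17, of which the first 2 lie wholly opposite a coding gene. AT3G04685 had no near row among those searched, the closest being AT3G29633 at a distance of 3.08. At 176 bases it is shorter than the 300 bases asked of those rows, so rows as short as it were not compared. A distance over 4 single libraries is a description only.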

How the data were processed

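Per the labels' protocols, Trizol was used for RNA and an Agilent SureSelect strand-specific kit for the libraries. The deposited table holds FPKM values, 1 column per library. The submitters' processing notes name bcl2fastq 2.1.7, TopHat, Cufflinks and TAIR10. No source used here gives a version of TopHat or Cufflinks, the strand setting, the annotation or the depth. FPKM keeps no count, so no counting interval is given.

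Row codes were matched to the TAIR10.1 annotation and genome (32538 of 32823 rows). Of 22477 nuclear loci with 1 row, 22475 had the same chromosome, start and end there. Differences were taken on the log2(FPKM + 1) scale, where the added 1 shrinks the changes of low rows. Even so, about 1 fragment can carry a row listed at 0 in the control past the 2-fold limit. Rows averaging 1 FPKM or more were counted, and a difference of 1 or more was called. No p-value was computed. The worth of 1 fragment is the mode of FPKM times exon length over rows of 800 to 2500 bases, with 1 transcript, no overlapping gene and under 6 FPKM. Fragments are FPKM times exon length divided by this worth, and ignore that short rows hold fewer start positions.

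The 10 rows, the lists, markers, motifs and limits were chosen with earlier results of these data known. All 10 rows are named, as are up to 4 genes per list with the largest absolute WT heat difference among rows past the row minimum, and the 3 rows nearest in pattern. The listed rows opposite DREB2E and GRF7, and HSFA2, were named after their values were seen. For MBF1C no upstream sequence is printed, since it lies in exons of a neighbouring gene. Python 3.11.15, pandas 2.3.3, numpy 2.4.6 and scipy 1.17.1 were used.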

Additional observations from a re-analysis of the deposited data

Results flagged for a closer look

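MBF1C differed with heat in opposite directions in the genotypes, at 25.8 then 40.7 FPKM in the WT pair and 29.1 then 25.3 in the miR164OE pair (control, then heat), so that the heat difference (AT3G24500) was -0.83 in miR164OE minus WT. AT3G24518, opposite HSFC1, read 70.3 then 70.8 FPKM in the WT pair and 98.6 then 41.4 in the miR164OE pair, a difference of the heat differences of -1.24. For MBF1C the opposite signs depend on the scaling: the miR164OE difference was 0.71 with nuclear rows set to a common sum and 0.038 with scaling by the median ratio. For AT3G24518 the differences were 0.0099 in WT and -1.23 in miR164OE as deposited, and 0.78 and -0.31 with nuclear rows set to a common sum. Neither difference between the genotypes was tested, since each rests on 1 library a group.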

How the results depend on the processing

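The count of the 10 rows at least 2-fold higher with heat was 6 in WT and ran from 4 to 8 over the alternatives, and 5 in miR164OE with a range of 4 to 6. The share of all rows called higher ran from 14.8% to 43.4% in WT and from 14.1% to 52.6% in miR164OE. The 4 in WT came with the row minimum of 5 FPKM, which 8 of the 10 rows reached. Nothing is read from these counts. The count different between controls was 2, and 3 with a pseudocount of 0.1, where 19.2% of all rows were higher and 22.8% lower. It was 1 with a pseudocount of 5 (5.81% and 5.98% of all rows). It was also 1 with a row minimum of 5 FPKM (12.9% and 12.8%), which leaves out DREB2A and HSBP. None of the 10 rows differed 2-fold between the heat libraries under any of the 6 alternatives. Over these, 6.35% to 24.3% of all rows were higher there and 5.29% to 16.9% lower. With nuclear rows set to a common sum, the median of all rows moved to 0.70 in WT and 1.09 in miR164OE, and 76.7% and 87.0% of the 2-fold rows were higher instead of 57.8% and 65.4%. On that scale HSFB2B (AT4G11660) and MBF1C (AT3G24500) passed 2-fold in WT, with 1.17 and 1.39, AT3G04685 did in miR164OE with 1.496, and HSFC1 and AT3G24518 no longer did in miR164OE, with -0.88 and -0.31, against -0.17 and 0.78 in WT. Relative to these medians, HSFC1 and AT3G24518 remained below the typical row in miR164OE. With scaling by the median ratio AT3G24518 was at -0.99 in miR164OE. With a pseudocount of 0.1, HSFB2A was higher by 3.25 in miR164OE control than in WT control and its heat differences differed by -2.43. With a pseudocount of 5, DREB2A lost its 3 calls, at 0.85, 0.73 and -0.73. No called value changed sign. With a pseudocount of 5 or a row minimum of 5 FPKM, 7 or 6 small heat shock protein rows were higher with heat in WT instead of 12. The calls over all rows in that direction were 1548 or 1378 instead of 3126. Those were 14.8% of 10488 rows and 28.7% of 4804 rows, against 29.8% of 10488. The row minimum of 5 FPKM thus left fewer rows to count, with a share close to the main one. The cause of the other moves was not tested. No paired analysis was possible because each group has 1 library. The level of rows with few fragments, such as DREB2A and HSBP, is limited by depth.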
